A study of Homo sapiens with 8 samples.

Results

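Desmosomes are the spot-like junctions that tie the intermediate filaments of neighbouring epithelial cells together, and 10 genes that encode their parts were followed here in PNT2, an immortalized cell line from normal human prostate. The genes were taken by name: the desmosomal cadherins *DSG2*, *DSG3*, *DSC2* and *DSC3*, the armadillo proteins *JUP*, *PKP1*, *PKP2* and *PKP3*, and the plakins *DSP* and *PPL*. They are 10 of the 33791 genes that had counts in the tables, and all 10 were among the 14653 genes with enough counts to be tested. The study asked how loss of the transcriptional repressors ERF and CIC, alone or together, changes prostate epithelial cells. RNA-seq was deposited for 4 groups with 2 libraries each, lettered A and B.

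All groups were of the same PNT2 line. They were the parental line (WT), a group labelled *ERF* KD, another labelled *CIC* KO, and a group labelled for both losses. The genotype deposited for the last group is CIC-ERF codeletion. That group is called *ERF* KD + *CIC* KO here, as in the study's methods. Per the study's methods, *ERF* was silenced in PNT2 with either of a pair of short hairpin RNAs under puromycin selection, and either of a pair of guide RNAs was used against *CIC* under blasticidin selection. The combined lines carried a single one of the hairpins with either guide. What the letters A and B stand for, which hairpin each library labelled *ERF* KD carried and which guide the others carried are not given in the sources used here, so the p-values measure only the spread between these libraries. *ERF* mRNA goes against the labels of the single-loss groups. It stood at 55.8 and 55.9 CPM (normalized counts scaled to a common library size) in WT, at 81.2 and 77.8 CPM in the libraries labelled *ERF* KD and at 18.8 and 11.7 CPM in those labelled *CIC* KO. In *ERF* KD + *CIC* KO it stood at 11.6 and 10.4 CPM. The deposited files of the single-loss groups are also named the other way round. The study also describes immunoblots of both proteins in its PNT2 lines and RT-qPCR of *ERF* in its *ERF* KD line, which were not analysed here. The labels of the single-loss groups were kept, and every direction given below for these groups is that of the libraries so labelled.

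In a desmosome, desmogleins (DSG) and desmocollins (DSC) reach across the gap between cells and bind each other. Inside the cell their tails hold plakoglobin (the product of *JUP*) and the plakophilins (PKP), which in turn hold desmoplakin (the product of *DSP*), the plakin that grips the keratin filaments. *DSG2* and *DSC2* are the cadherins of simple epithelia and are also made by other cell types, whereas *DSG3* and *DSC3* are best known from the basal layers of stratified epithelia, and basal cells of the prostate share several of their genes.

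Library totals ran from 19477473 to 25813157 estimated counts, and the members' levels are given as CPM after normalization for library size and composition. Where genes are set against each other, TPM are used, since these relative abundances are corrected for transcript length. The epithelial label held in WT: summed over 8 epithelial markers, levels were 3942 to 4834 CPM, against 216 to 322 CPM over 8 mesenchymal markers, 9.13 to 12.9 CPM over 3 endothelial markers and 3.93 to 6.08 CPM over 3 haematopoietic markers. Of 5 basal prostate markers 1 was at or below the floor of 3 counts in both WT libraries, and of 5 luminal markers 2 were. The luminal markers summed to 24.5 to 24.6 CPM. In bulk RNA, fewer cells that express a gene and less of its RNA per cell cannot be told apart.

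In WT the main plaque genes and *DSG2* were the most abundant members on the length-corrected scale. *PKP3* stood at 107 and 119 TPM, *JUP* at 99.8 and 117 TPM, *DSP* at 99.3 and 89.3 TPM and *DSG2* at 80.4 and 75.9 TPM. *PKP3* and *JUP* overlapped, *DSP* came just below them, and *DSG2* lay below all 3 in both libraries. *PPL*, which encodes periplakin, followed with 51.1 and 44.7 TPM, *PKP2* with 47.9 and 34.7 TPM, *PKP1* with 15.7 and 23.1 TPM and *DSC2* with 14.3 and 14.5 TPM. The lowest were *DSC3*, at 2.67 and 2.62 TPM, and *DSG3*, at 2.86 and 2.37 TPM, whose ranges overlapped, as did those of *PPL* and *PKP2*. *DSG2* was thus the main desmoglein, with *DSG3* giving 3.23% ± 0.289 (SD, n = 2) of desmoglein TPM, and *DSC3* gave 15.5% ± 0.287 (SD, n = 2) of desmocollin TPM.

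**Figure D1:**
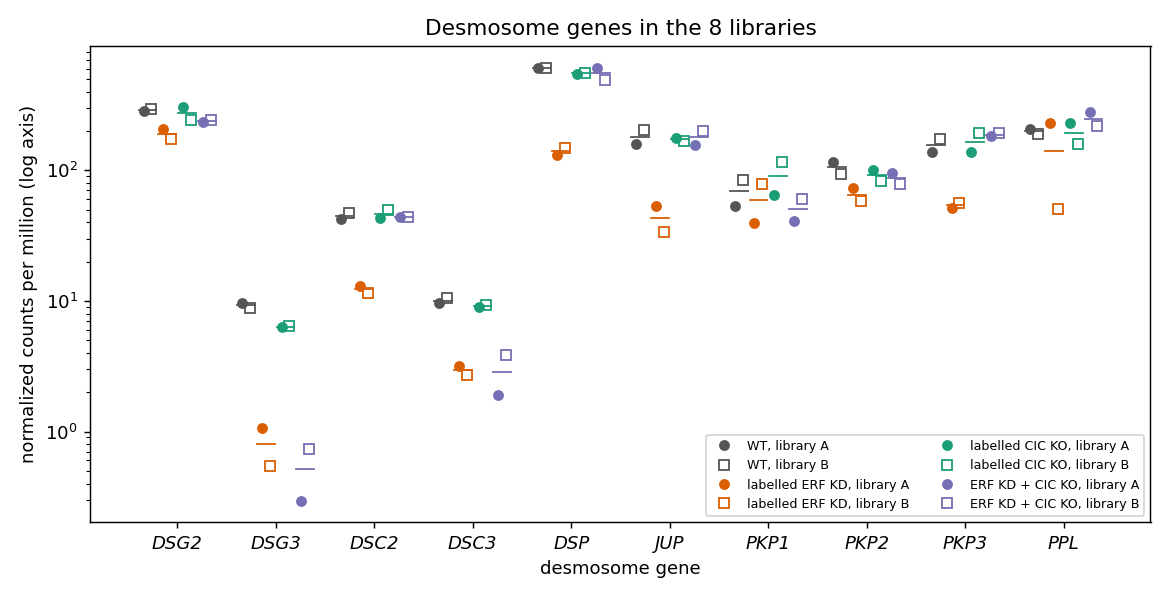
Normalized counts (CPM, log axis) of the 10 desmosome genes, with filled circles for library A, open squares for library B, a line at the mean of each pair and colours for the 4 groups. The orange libraries (labelled *ERF* KD) lie below the rest for *DSC2*, *DSP*, *JUP* and *PKP3*, and *DSG3* and *DSC3* lie low in the orange and the purple (*ERF* KD + *CIC* KO) libraries.

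The cadherin members lie side by side on chromosome 18. In GENCODE release 29 (GRCh38), *DSC3* (30990008 to 31042815) and *DSC2* (31058840 to 31102522) are on the minus strand, and *DSG3* (31447795 to 31478702) and *DSG2* (31498043 to 31549008) on the plus strand, within a span of 559.0 kb. Between them lie *DSC1*, *DSG1* and *DSG4*, which had at most 3 counts in any of the 8 libraries. *DSG2* shares 171 exonic bases with *DSG2-AS1* on the other strand, which is not among the genes counted. No other member shared exonic bases with another gene. *DSP* lies on chromosome 6 (7541575 to 7586717), *JUP* on chromosome 17 (41754604 to 41786931), *PKP1* on chromosome 1 (201283452 to 201332993), *PKP2* on chromosome 12 (32790745 to 32896840), *PKP3* on chromosome 11 (392614 to 404908) and *PPL* on chromosome 16 (4882507 to 4960741).

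Promoter windows are shown for members that moved in different ways across the groups: *DSG3* and *DSC3*, which were low both in the libraries labelled *ERF* KD and in *ERF* KD + *CIC* KO, and *DSC2*, *DSP* and *JUP*, which were low only in the former of these 2 groups. Each window runs from 250 bases before to 50 bases after a RefSeq start site (GRCh38.p14), 5′ to 3′ on the gene's strand. Capitals mark CACCTG on either strand (its reverse complement reads CAGGTG), an E-box that the ZEB and SNAI repressors are known to bind. Of the 2 windows each of *DSC2* and *JUP*, only the one that holds this E-box is printed. The window of *DSG2*, which holds it 2 times, is not printed.

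DSG3, chr18:31447491-31447790, plus strand: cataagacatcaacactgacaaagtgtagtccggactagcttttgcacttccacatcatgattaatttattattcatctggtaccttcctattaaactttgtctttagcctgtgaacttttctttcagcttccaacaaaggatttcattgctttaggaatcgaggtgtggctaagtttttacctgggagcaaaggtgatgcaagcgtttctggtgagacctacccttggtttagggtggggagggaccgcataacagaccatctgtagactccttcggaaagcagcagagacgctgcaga
DSC3, chr18:31042693-31042992, minus strand: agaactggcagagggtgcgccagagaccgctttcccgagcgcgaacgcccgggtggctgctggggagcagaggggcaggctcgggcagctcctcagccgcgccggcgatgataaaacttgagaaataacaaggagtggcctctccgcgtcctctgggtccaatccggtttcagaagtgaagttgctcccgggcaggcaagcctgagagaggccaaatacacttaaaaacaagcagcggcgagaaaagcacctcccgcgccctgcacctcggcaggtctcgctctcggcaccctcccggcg
DSC2, chr18:31102372-31102671, minus strand: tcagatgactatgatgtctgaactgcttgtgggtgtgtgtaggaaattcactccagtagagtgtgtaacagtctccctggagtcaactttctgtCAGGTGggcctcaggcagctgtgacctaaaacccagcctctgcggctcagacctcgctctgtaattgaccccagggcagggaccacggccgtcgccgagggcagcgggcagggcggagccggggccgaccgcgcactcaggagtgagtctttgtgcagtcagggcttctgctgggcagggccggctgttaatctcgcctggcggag
DSP, chr6:7541421-7541720, plus strand: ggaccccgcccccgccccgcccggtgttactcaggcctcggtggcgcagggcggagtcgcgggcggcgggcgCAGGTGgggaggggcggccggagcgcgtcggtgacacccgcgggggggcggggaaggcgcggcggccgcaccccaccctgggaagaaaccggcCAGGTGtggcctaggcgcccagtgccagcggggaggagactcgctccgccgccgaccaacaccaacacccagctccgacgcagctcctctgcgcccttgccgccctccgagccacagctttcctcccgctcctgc
JUP, chr17:41785927-41786226, minus strand: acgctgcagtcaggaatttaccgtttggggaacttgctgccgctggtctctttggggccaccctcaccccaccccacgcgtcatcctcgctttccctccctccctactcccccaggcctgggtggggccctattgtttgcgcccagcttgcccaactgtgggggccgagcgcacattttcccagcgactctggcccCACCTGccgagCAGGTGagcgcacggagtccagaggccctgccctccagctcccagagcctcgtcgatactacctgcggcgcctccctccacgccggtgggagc

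The *DSG3* window is the least GC-rich of the 5 printed, at 44.0% GC with 6 CG dinucleotides, and 18.8% of the 35116 promoter windows in the table have a lower GC share. The *DSP* window is at 77.0% GC with 37 CG dinucleotides, above 93.6% of all windows. The *DSC3* window is at 63.3% GC, the *DSC2* window at 60.7% and the *JUP* window at 66.7%. The table held 9 windows of 7 members, *DSC2* and *JUP* having 2 each. It held none of *PKP2*, *PPL* or *PKP3*, the last of which moved across the groups as *DSC2*, *DSP* and *JUP* did. CACCTG was found 2 times in the *DSP* window (from positions -178 and -85), 2 times in that of *JUP* (from -54 and -43), 1 time in that of *DSC2* (from -156) and 2 times in that of *DSG2* (from -232 and -116), positions being counted from the start site. It was not found in the windows of *DSG3*, *DSC3* and *PKP1* or in the other window of *DSC2* and of *JUP*. CACCTG was the only E-box string searched, so other sequences that ZEB or SNAI factors may bind were not counted in any window. Among all promoter windows 20.6% hold it. TGAATGAA and TGAATGGA, forms of the site that CIC is known to bind, were searched on both strands and found in none of the 9 windows. They occur in 1.65% and 1.03% of all windows, and no hits of the motifs overlapped. A match or its absence is a description of these letters only.

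In the libraries labelled *ERF* KD desmosome genes of each class, cadherins, armadillo proteins and plakins, were lower. Of the 10 genes 7 were called lower than in WT (*DSG2*, *DSG3*, *DSC2*, *DSC3*, *DSP*, *JUP* and *PKP3*) and none higher, where a call is an adjusted p under 0.05 in edgeR's quasi-likelihood test over all 14653 genes. Among all tested genes 6.07% were called lower. With the replicate letter as a block, which compares libraries of the same letter, 8 members were called lower beside 9.83% of all tested genes. The median log2 fold change was -1.64 over the 10 members and 0.01 over all tested genes. The summed TPM of the 10 members was 521 and 523 in WT, and 253 and 193 where *ERF* KD was the label.

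Of the cadherins, *DSG3* had the largest difference. It stood at 9.69 and 8.77 CPM in WT (204 and 172 counts) and at 1.06 and 0.546 CPM in the libraries labelled *ERF* KD (22 and 11 counts). The log2 fold change was -3.51 ± 0.449 (SE; adjusted p = 0.00228), or 11.4-fold lower. *DSC3* stood at 9.55 and 10.5 CPM in WT and at 3.17 and 2.73 CPM in the libraries labelled *ERF* KD, or -1.76 ± 0.339 (SE) on the log2 scale (adjusted p = 0.0147). *DSC2* stood at 42.3 and 46.9 CPM in WT and fell to 13.1 and 11.5 CPM, or -1.86 ± 0.149 (SE) on the log2 scale (adjusted p = 0.000214). *DSG2*, the most abundant cadherin, had the smallest difference of the 4, from 282 and 292 CPM to 206 and 173 CPM, or -0.60 ± 0.154 (SE) on the log2 scale (adjusted p = 0.0458). The groups did not overlap for any of these 4 genes. Here and below such statements are descriptions only, since the share of all tested genes without overlap was not counted. The ratio of *DSG2* to *DSC2* TPM was 5.60 and 5.23 in WT but 13.2 and 12.6 in this group, a difference that was not tested. The *DSG2* call was lost in 10 of 16 alternative fits (adjusted p up to 0.211), among them those without any 1 library of WT, of the group labelled *ERF* KD or of *ERF* KD + *CIC* KO. That of *DSC3* was lost in 7 of 16 (adjusted p up to 0.102), among them those without any 1 library of the groups compared.

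The mRNAs that encode desmoplakin and plakoglobin, the core of the plaque, both fell. *DSP* stood at 610 and 603 CPM in WT and at 131 and 148 CPM in the libraries labelled *ERF* KD, or -2.12 ± 0.152 (SE) on the log2 scale (adjusted p = 0.000139). *JUP* stood at 160 and 202 CPM in WT and at 53.2 and 33.5 CPM, or -2.06 ± 0.239 (SE) on the log2 scale (adjusted p = 0.00140). The groups did not overlap for either gene, which were 4.34-fold and 4.17-fold lower, and the libraries of a group lay further apart for *JUP* than for *DSP*.

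Of the plakophilins, which cluster the cadherins and link them to desmoplakin, *PKP3* was called lower and *PKP1* and *PKP2* were not. *PKP3* stood at 138 and 172 CPM in WT and fell to 51.8 and 56.0 CPM, or -1.52 ± 0.187 (SE) on the log2 scale (adjusted p = 0.00185). *PKP2* stood at 116 and 94.3 CPM in WT and at 72.5 and 57.8 CPM, and its log2 fold change of -0.69 (SE 0.184) missed the threshold (adjusted p = 0.0506) but passed it with the replicate letter as a block (adjusted p = 0.00214). *PKP1* stood at 53.2 and 84.6 CPM in WT and at 39.4 and 79.0 CPM, groups that overlapped, or -0.22 ± 0.401 (SE) on the log2 scale (adjusted p = 0.787). *PKP3* gave 65.0% ± 3.20 (SD, n = 2) of plakophilin TPM in WT but 50.6% ± 0.994 (SD, n = 2) in the group labelled *ERF* KD.

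*PPL* was the member whose libraries disagreed. It stood at 208 and 190 CPM in WT, and at 231 CPM in library A and 50.8 CPM in library B labelled *ERF* KD. Library A thus lay above both WT libraries and library B below them, and the fitted log2 fold change of -0.50 (SE 0.549, adjusted p = 0.635) describes neither. Without library A it was -1.97 (adjusted p = 0.00655), and without library B it was 0.22. Of the 13032 genes at 1 CPM or more, 44 (0.338%) differed more between these libraries.

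**Figure D2:**
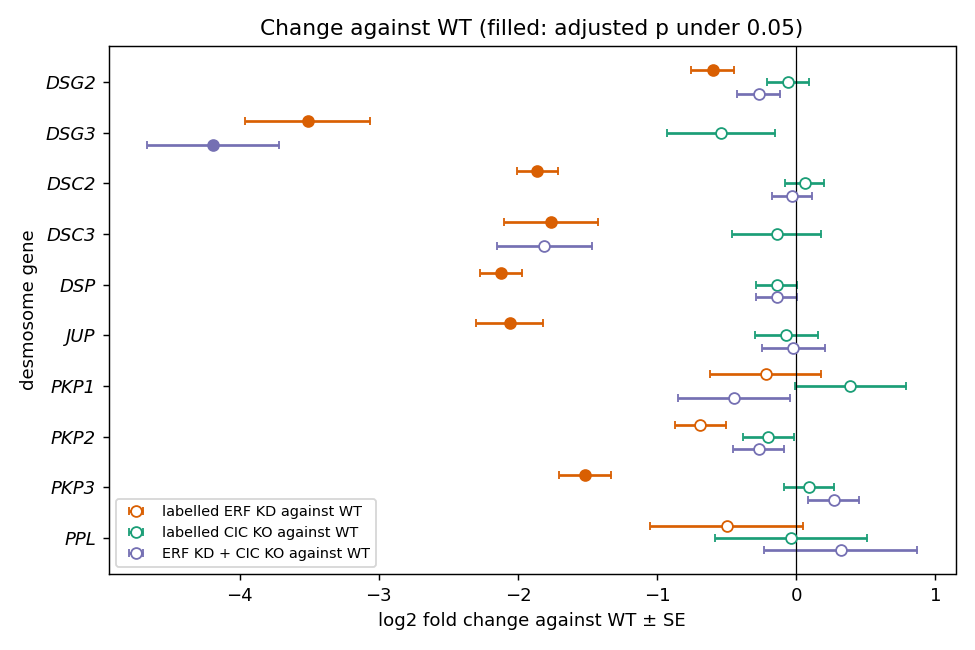
Log2 fold change against WT ± SE of each desmosome gene in the 3 other groups, from 2 libraries a group; filled points have an adjusted p under 0.05. The 3 comparisons share the WT libraries. 7 members are filled for the libraries labelled *ERF* KD, none for those labelled *CIC* KO, and *DSG3* alone for *ERF* KD + *CIC* KO.

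In the libraries labelled *CIC* KO no change of a desmosome gene was called. In edgeR, none of the 10 members had even an unadjusted p under 0.05. The test called 0 (0%) of the 14653 genes, with 587 at an unadjusted p under 0.05, whereas DESeq2 called 26 genes, with no member among them, and limma called 0. The log2 fold changes of the members ran from -0.54 for *DSG3* (SE 0.386) to 0.39 for *PKP1* (SE 0.400). *DSG3* was at 6.28 and 6.40 CPM, *DSC3* at 8.93 and 9.24 CPM and *DSP* at 544 and 559 CPM, each below both WT libraries. *DSC2* was at 43.2 and 49.5 CPM, *JUP* at 177 and 167 CPM and *PKP3* at 138 and 191 CPM, ranges that overlapped those of WT. These libraries had the lower *ERF* mRNA of the single-loss groups.

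In *ERF* KD + *CIC* KO *DSG3* was far below WT, whereas most other desmosome genes overlapped with WT or lay close to it. *DSG3* was the only member called in edgeR's test, among 0.0614% of all tested genes called lower (9 of 14653). With the replicate block 2 members were called lower, *DSG3* and *DSC3*, beside 1.52% of all tested genes. *DSG3* stood at 0.296 and 0.733 CPM (7 and 13 counts) against 9.69 and 8.77 CPM in WT, a log2 value of -4.19 ± 0.475 (SE; adjusted p = 0.0322), or 18.3-fold lower. Both libraries were below every WT library and above the floor of 3 counts. This fall was known when the genes were chosen, so its p is not independent evidence. The call was lost in 9 of 16 alternative fits, among them those without any 1 library of WT, of the group labelled *CIC* KO or of *ERF* KD + *CIC* KO (adjusted p from 0.0609 to 0.271), with log2 fold changes from -4.93 to -1.66 over all 16 and the smallest of these on the log2(TPM + 1) scale, which shrinks the changes of low genes.

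*DSC3* also stood low in this group, at 1.90 and 3.83 CPM (45 and 68 counts) against 9.55 and 10.5 CPM in WT. Its log2 fold change of -1.81 (SE 0.340) missed the threshold (adjusted p = 0.0940) and passed it with the replicate block (adjusted p = 0.0286). The other 8 members had log2 fold changes between -0.45 (*PKP1*) and 0.32 (*PPL*), none of them called. *DSP* was at 608 and 494 CPM (log2 fold change -0.14, SE 0.146), *DSC2* at 43.5 and 43.6 CPM (-0.03, SE 0.141) and *JUP* at 157 and 199 CPM (-0.02, SE 0.228). *PKP3* was at 182 and 192 CPM, above both WT libraries, or 0.27 ± 0.182 (SE) on the log2 scale (adjusted p = 0.548). *DSG2* was at 235 and 241 CPM, below both WT libraries, or -0.27 ± 0.153 (SE) on the log2 scale (adjusted p = 0.483). The summed TPM of the 10 members was 505 and 474.

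The minor cadherins had smaller shares of their families in *ERF* KD + *CIC* KO than in WT. *DSC3* gave 2.99% and 7.73% of desmocollin TPM there, against 15.7% and 15.3% in WT, and 14.5% and 21.2% in the libraries labelled *ERF* KD, where *DSC2* was low as well. *DSG3* gave 0.131% and 0.314% of desmoglein TPM, against 3.43% and 3.02% in WT. Its share was not low in *ERF* KD + *CIC* KO alone, since the group labelled *ERF* KD had 0.530% and 0.326%. These shares rest on few *DSG3* and *DSC3* counts and were not tested.

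**Figure D3:**
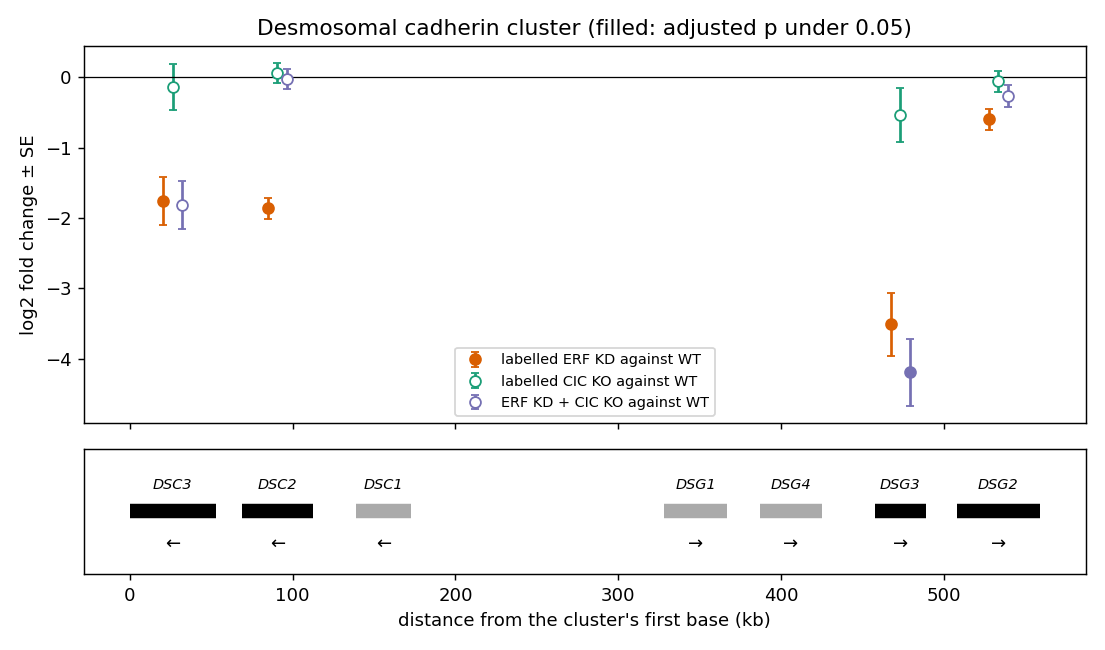
Upper panel, log2 fold change against WT ± SE of the 4 cadherin members (filled: adjusted p under 0.05), placed by distance in kb from the first base of the cluster; lower panel, the genes drawn to scale with arrows for the strand and members in black. *DSC3* and *DSG3*, which are not adjacent, lie low in both the orange and the purple group, while their neighbours *DSC2* and *DSG2* lie near 0 in purple.

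Set against the libraries labelled *ERF* KD, *ERF* KD + *CIC* KO had higher levels of 4 members, *DSC2*, *DSP*, *JUP* and *PKP3*, and 6.04% of all tested genes were called higher. The log2 differences were 1.82 for *DSC2* (SE 0.148, adjusted p = 0.000219), 1.98 for *DSP* (SE 0.152, adjusted p = 0.000172), 2.04 for *JUP* (SE 0.239, adjusted p = 0.00140) and 1.80 for *PKP3* (SE 0.188, adjusted p = 0.000771). In all 4 genes both libraries of the former lay above both of the latter. *PKP2* differed by 0.42 (SE 0.183, adjusted p = 0.189, and 0.0198 with the replicate block). *DSG3* (-0.68, SE 0.504, adjusted p = 0.453) and *DSC3* (-0.05, SE 0.344, adjusted p = 0.944) were not called, and their ranges overlapped between these groups. *PPL* differed by 0.82 (SE 0.551, adjusted p = 0.406), and by 2.29 (adjusted p = 0.00347) without library A labelled *ERF* KD.

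Set against the libraries labelled *CIC* KO, *ERF* KD + *CIC* KO had no member called by edgeR, which called 0 (0%) of all genes here, with 1216 genes and 2 members (*DSG3* and *DSC3*) at an unadjusted p under 0.05. DESeq2 called 141 genes, *DSG3* and *DSC3* among them, and limma called 0. *DSG3* was lower by a log2 difference of -3.65 (SE 0.471, adjusted p = 0.122, and 0.0292 with the replicate block), with both libraries below both of those labelled *CIC* KO. *DSC3* had a log2 difference of -1.67 (SE 0.340, adjusted p = 0.296). Both groups had low *ERF* mRNA, as given above.

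Between the single-loss groups, 6 members (*DSG3*, *DSC2*, *DSC3*, *DSP*, *JUP* and *PKP3*) were called lower in the group labelled *ERF* KD than in that labelled *CIC* KO, beside 5.65% of all tested genes. The log2 differences ran from -2.97 for *DSG3* (SE 0.445, adjusted p = 0.00489) to -1.61 for *PKP3* (SE 0.187, adjusted p = 0.00136). With the replicate block 9 members were called lower, beside 8.98% of all tested genes, adding *DSG2* (-0.53, adjusted p = 0.0710 without and 0.0241 with it), *PKP2* (adjusted p = 0.148 and 0.0112) and *PKP1* (adjusted p = 0.433 and 0.0148). Exchanging the 2 labels would turn the sign of each of these values.

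The interaction term compares *ERF* KD + *CIC* KO with what the single-loss changes would give if added up. It was called, with a positive sign, for *DSP*, *JUP*, *DSC2* and *PKP3*, beside 2.67% of all tested genes called higher. The terms were 2.12 for *DSP* (SE 0.209, adjusted p = 0.00140), 2.10 for *JUP* (SE 0.328, adjusted p = 0.0114), 1.77 for *DSC2* (SE 0.204, adjusted p = 0.00307) and 1.71 for *PKP3* (SE 0.259, adjusted p = 0.0103) on the log2 scale. For *DSG3* the term was -0.14 (SE 0.612, adjusted p = 0.948) and for *DSC3* 0.08 (SE 0.472, adjusted p = 0.960). These errors leave room for differences of more than 1 log2 unit for *DSG3*, so the term does not show that the single changes simply add up. *PKP2* had a term of 0.62 (SE 0.259), with an adjusted p of 0.263 that fell to 0.0288 with the replicate block. The term is unchanged if the 2 single-loss labels are exchanged.

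**Figure D4:**
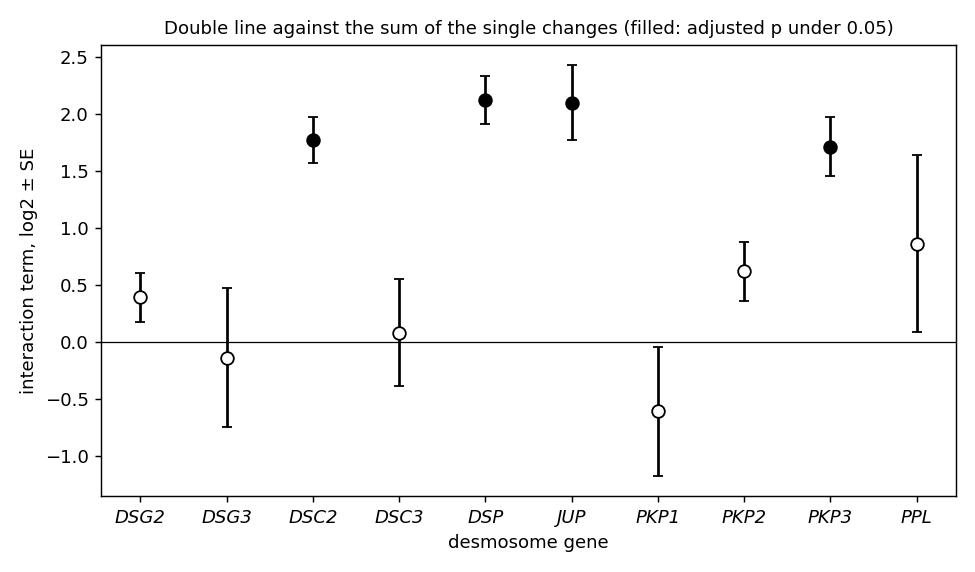
Interaction term of each desmosome gene on the log2 scale ± SE, the change in *ERF* KD + *CIC* KO less both single-loss changes; filled points have an adjusted p under 0.05. *DSC2*, *DSP*, *JUP* and *PKP3* lie between 1.71 and 2.12, whereas *DSG3* and *DSC3* lie near 0 with wide errors.

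Ordered by mean level, *DSC2*, *DSP*, *JUP* and *PKP3* had a single step that passed the test, between the libraries labelled *ERF* KD at the bottom and the group next above. For *DSG3* and *DSC3* the step lay in the middle of the order, with WT and the libraries labelled *CIC* KO above it and the other 2 groups below (adjusted p = 0.00489 for *DSG3* and 0.0209 for *DSC3*). For *DSG2*, *PKP1*, *PKP2* and *PPL* no step between neighbours in the order passed the test.

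The libraries lettered B differed from those lettered A in some of these genes, whatever the group, in a comparison added after the data were seen. *PKP1* was higher in B than in A in 4 of 4 groups, with 53.2 against 84.6 CPM in WT, 39.4 against 79.0 CPM in the group labelled *ERF* KD, 64.1 against 116 CPM in that labelled *CIC* KO and 41.2 against 59.9 CPM in *ERF* KD + *CIC* KO. The log2 difference was 0.77 (SE 0.0951, adjusted p = 0.00763), in a test that called 4.22% of all genes. *PKP3* was also higher in B in 4 of 4 groups, by 0.25 (SE 0.0888, adjusted p = 0.151). *PKP2* went the other way in 4 of 4 groups, by -0.30 (SE 0.0707, adjusted p = 0.0554), and *PPL* was lower in B in 4 of 4 groups, by -0.77 (SE 0.294, adjusted p = 0.174). For *PKP1* the difference between letters was thus larger than any difference between groups that involves WT.

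**Figure D5:**
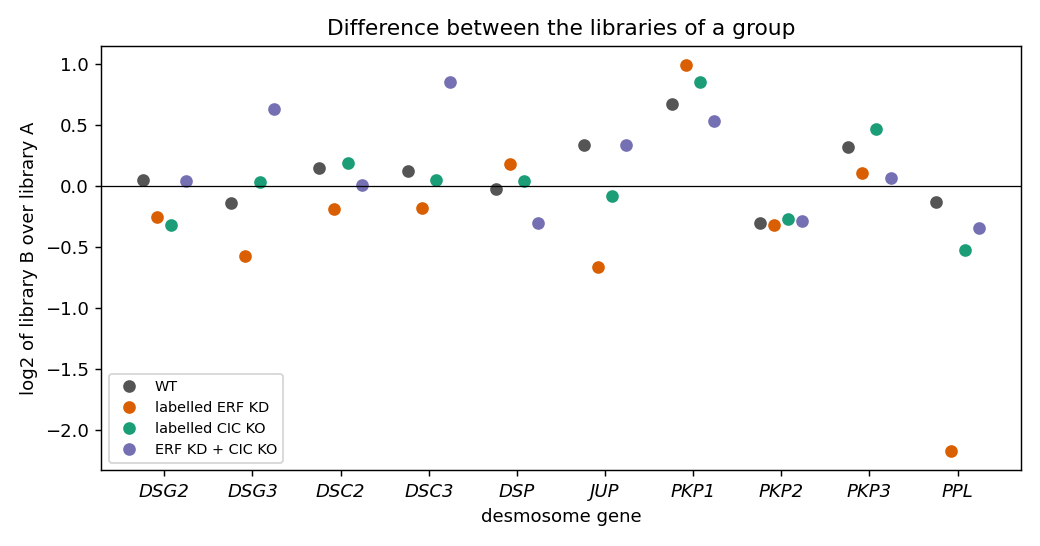
Log2 ratio of library B to library A of each desmosome gene in the 4 groups. *PKP1* and *PKP3* lie above 0 and *PKP2* and *PPL* below 0 in all 4 groups, and *PPL* in the libraries labelled *ERF* KD lies at -2.17.

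The members differed in how their counts were divided between transcripts. *DSG2*, *DSG3*, *PKP1*, *PKP2*, *PKP3* and *PPL* each had a single transcript with 10% or more of the gene's counts in some library. *DSP* had 2, *DSP-201* with 2871 codons and *DSP-202* with 2272 codons, the long and the short form of desmoplakin. *DSP-202* took 16.9% and 20.4% of *DSP* counts in WT, 16.9% and 18.1% in the group labelled *ERF* KD, 18.4% and 22.8% in that labelled *CIC* KO, and 24.5% and 28.3% in *ERF* KD + *CIC* KO. The last group lay above the other 6 libraries, a difference that was not tested, and the group labelled *ERF* KD, in which *DSP* fell, lay within the range of WT. *DSC2-202*, the longer form of desmocollin 2 with 901 codons against 847, took 59.3% to 73.1% of *DSC2* counts across the 8 libraries, with overlapping groups. It was 5124 bases long as quantified but 12325 bases in GENCODE release 29. The effect of this difference on its share and on *DSC2* TPM was not tested. *JUP-201* and *JUP-203*, which encode proteins of the same length of 745 codons, took 39.7% to 48.3% and 42.0% to 51.4% of *JUP* counts. *DSC3-202*, with 839 codons against 896 for *DSC3-201*, took 74.3% and 40.5% in WT. In *ERF* KD + *CIC* KO it took 0.00% and 35.7% of only 45 and 68 *DSC3* counts.

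Other genes of the junction, taken as a list without the members, had 4 tested genes of 7. In the libraries labelled *ERF* KD 3 of the 4 fell and none rose. For this list and those below, 6.07% of all tested genes were called lower and 4.01% higher against WT in these libraries. With the replicate block 9.83% were called lower and 1230 of 14653 genes higher. *CDSN*, which encodes corneodesmosin of modified desmosomes, changed by -3.71 on the log2 scale (SE 0.415, adjusted p = 0.00114), *PERP*, a desmosomal tetraspan protein, by -1.37 (SE 0.226, adjusted p = 0.00726) and *EVPL*, which encodes envoplakin, the partner of periplakin, by -0.73 (SE 0.112, adjusted p = 0.00566). *PKP4* was not called (-0.06, SE 0.173). None of the 4 was called in *ERF* KD + *CIC* KO against WT, with a list median of -0.12, and with the replicate block *CDSN* was called lower (log2 fold change -1.23, adjusted p = 0.213 without and 0.0399 with the block).

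Keratins and vimentin, the filaments on the inner side, were a list of 12 genes with 11 tested. In the libraries labelled *ERF* KD 5 fell and 1 rose, with a list median of -0.94. With the replicate block 9 were called lower, adding *KRT8* (adjusted p = 0.0543 without and 0.000628 with it), *KRT15* (0.0771 and 0.00119), *KRT7* (0.0935 and 0.0323) and *KRT6A* (0.124 and 0.0438). The basal keratin *KRT5* (-3.45, adjusted p = 0.00857) and *KRT17* (-1.68, adjusted p = 0.0199) fell, and *VIM*, the filament of mesenchymal cells, rose by 3.45 (adjusted p = 0.00835). *KRT14*, the partner of *KRT5*, also fell (adjusted p = 0.00913), from 0.855 and 1.38 CPM to 0.0480 and 0.0497 CPM, which is below the floor of 3 counts, so no fold is given. None of the 11 was called in *ERF* KD + *CIC* KO against WT, with or without the block, and the list median was -0.10.

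Of 11 adherens junction genes, all tested, 5 fell and 1 rose in the libraries labelled *ERF* KD. *CDH1*, which encodes E-cadherin, fell (-4.41 on the log2 scale, adjusted p = 1.27e-05), as did *NECTIN4* (-3.38, adjusted p = 0.0105) and *CDH3*, P-cadherin (-2.95, adjusted p = 0.000315), whereas *CDH2*, N-cadherin, rose by 1.81 (adjusted p = 0.00258). Of 7 genes for proteases, including those that cleave desmosomal cadherins outside the cell, 3 fell: *KLK7* (-5.56, adjusted p = 0.000114), *KLK5* (-4.29, adjusted p = 0.000292) and *MMP9* (-3.35, adjusted p = 0.0252). The replicate block added a lower call of *CTNND1*, which encodes p120-catenin (adjusted p = 0.0770 without and 0.00614 with it), and of the protease gene *ADAM10* (0.108 and 0.0376). Without the block none of either list was called in *ERF* KD + *CIC* KO against WT. With it *CTNNA1*, which encodes alpha-catenin, was called higher (log2 fold change 0.68, adjusted p = 0.0962 without and 0.0220 with the block). The median log2 fold changes there were -0.02 and -0.20.

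Transcription factors of epithelia were a list of 12 with 10 tested, of which 7 fell and none rose in the libraries labelled *ERF* KD. The largest falls were those of *OVOL1* (-4.29, adjusted p = 0.00116), *OVOL2* (-4.26, adjusted p = 5.43e-05), *EHF* (-3.96, adjusted p = 0.00511) and *GRHL2* (-3.44, adjusted p = 3.47e-05). *KLF5* was called as well with the replicate block (-0.72, adjusted p = 0.0626 without and 0.0156 with it). Of 7 repressors of epithelial genes 3 rose and none fell, beside 4.01% of all tested genes called higher. The 3 were *ZEB2* (3.24, adjusted p = 0.000138), *ZEB1* (2.78, adjusted p = 0.000131) and *TWIST1* (1.23, adjusted p = 0.0307). *ZEB1*, a repressor that binds the E-box marked above, was at 6.08 and 7.04 CPM in WT, 41.1 and 49.0 CPM in the libraries labelled *ERF* KD, 8.37 and 9.04 CPM in those labelled *CIC* KO and 2.50 and 2.93 CPM in *ERF* KD + *CIC* KO. *SNAI2*, which encodes SLUG, was at 74.3 and 77.0 CPM in WT and at 16.7 and 52.2 CPM in the libraries labelled *ERF* KD, below both WT libraries and opposite in sign to *ZEB1* (log2 fold change -1.14, SE 0.452, adjusted p = 0.162). *SNAI3* (-1.51, SE 0.477, adjusted p = 0.0882) and *SNAI1* (-0.50, SE 0.524, adjusted p = 0.617) also had values below 0 on the log2 scale, and none of the 3 was called. *SNAI2* was at 102 and 61.2 CPM in *ERF* KD + *CIC* KO, a range that held both WT values. No gene of either list was called in *ERF* KD + *CIC* KO against WT without the block. With the block *ZEB1* (log2 fold change -1.27, adjusted p = 0.0741 without and 0.0171 with it) and *EHF* (-2.40, adjusted p = 0.122 and 0.0326) were called lower there.

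Markers of cell types moved with these changes, and some of them (*CDH1*, *KRT5*, *ZEB1* and *ZEB2* among others) are also on the lists above. In the libraries labelled *ERF* KD the 8 mesenchymal markers summed to 1880 to 2291 CPM, against 216 to 322 CPM in WT. Of them 5 of 8 were called higher (6 with the replicate block), beside 4.01% of all tested genes (1230 of 14653 with it). The 8 epithelial markers summed to 1659 to 2123 CPM there, against 3942 to 4834 CPM in WT. Of these 7 of 8 were called lower (8 with the block), beside 6.07% of all tested genes (9.83% with it). In *ERF* KD + *CIC* KO the sums were 156 to 230 CPM and 4136 to 5277 CPM, and no marker of either list was called except *ZEB1*, lower with the block as given above. The 5 basal prostate markers summed to 426 to 535 CPM in WT, 105 to 216 CPM in the libraries labelled *ERF* KD and 383 to 585 CPM in *ERF* KD + *CIC* KO. The last sum was mostly *ITGB4* (286 and 308 CPM) and *KRT5* (90.7 and 256 CPM), so it says little of the other markers. Of 4 tested, 2 were called lower in the libraries labelled *ERF* KD (4 with the block). None was called in *ERF* KD + *CIC* KO, where the list median was -0.19 and *KRT14* was at -1.78 (SE 0.587, adjusted p = 0.263). Endothelial and haematopoietic markers, with 3 genes each, summed to at most 67.6 and 10.8 CPM in any library, and none was called in either comparison with WT without the block. With it *CDH5*, at 10.3 and 5.15 CPM in WT and 65.4 and 15.0 CPM in *ERF* KD + *CIC* KO, was called higher in the latter (adjusted p = 0.351 without and 0.0184 with the block). Of 5 epidermal differentiation markers 3 were tested. *IVL* was called lower in the libraries labelled *ERF* KD (log2 fold change -2.41, adjusted p = 0.0421). In *ERF* KD + *CIC* KO *FLG* was called lower only with the block (adjusted p = 0.122 without and 0.0415 with it). It was at 1.76 and 1.78 CPM in WT and at 0.127 and 0.395 CPM there, close to the floor. *KRT10* was called in neither comparison. The part of a changed mix of cells in the members' values was not tested.

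By Pearson's r of log2 CPM over the 8 libraries, among 13031 genes at 1 CPM or more on average, the gene most like *DSG3* was its fellow member *DSC3* (r = 0.983), followed by *CCT6P1* (0.978), *BHLHE41* (0.976), *TP53INP1* (0.975) and *NUDT16P1* (0.975). The genes most like *DSP* were *OVOL2* (0.997), *CRYBG1* (0.996), *PACSIN2* (0.994), *EPHA1* (0.993) and *TMPRSS13* (0.993). *CCT6P1* and *NUDT16P1* are named as pseudogenes, and reads shared with their parent genes could make their counts uncertain. The libraries fall into groups, so each r is a description of a shared pattern over 4 groups and carries no p.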

How the data were processed

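RNA-seq of 8 PNT2 libraries was deposited by the authors as kallisto tables of estimated counts, TPM and effective lengths per transcript. The estimated counts are not normalized, and TPM were deposited as kallisto scales them, corrected for length. The submitters' processing notes name hg19, and the study's methods name another counter. The kallisto version, annotation and strandedness are not given in the sources used here. Of 180253 transcripts, 153245 (85.0%) matched GENCODE release 29, and their estimated counts (93.2% to 93.3% of each library) were summed per gene and rounded.

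Genes passing filterByExpr (14653) were tested with edgeR 4.0.16 (TMM, glmQLFit, glmQLFTest) in R 4.3.3, in a single fit of 4 groups, with Benjamini-Hochberg adjustment over all of them. An exact permutation test of 2 against 2 libraries cannot pass 0.05, so none was used. Chi-square values of 21.7 to 43.4 per degree of freedom show that the libraries of a group differed beyond sampling noise.

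The A minus B differences correlated across genes by 0.215 to 0.441 in all 6 pairs of groups, a sign of pairing by letter. The values given are from the fit without a block, and the adjusted p from the fit with the letter as a block is added where it changed the call of a member, or of a junction, filament, protease or regulator gene on the lists against WT. Alternatives were DESeq2 1.42.0, no filter, length-scaled counts, limma 3.58.1 on log2(TPM + 1) and log2(TPM + 0.1), other subsets of libraries and a minimum log2 change of 1. The fit with adjusted deviances and the letter comparison were chosen after seeing the data.

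The members, lists and naming rule were chosen with earlier results of these data known. The rule named all members, *ERF* and *CIC*, at most 4 called genes per list, and the 5 genes most like *DSG3* and *DSP*. *CIC* mRNA was 128 and 129 CPM in WT, 132 and 131 CPM in the libraries labelled *CIC* KO and 90.9 and 66.4 CPM in *ERF* KD + *CIC* KO, which checks no guide cut. Promoters are from RefSeq. A planned comparison of the members' protein sequences was not run. Floors cover counting error only. The SE and SD given also cover the spread between these libraries, but no variation beyond them.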

Additional observations from a re-analysis of the deposited data

Results flagged for a closer look

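The interaction term, a test of *ERF* KD + *CIC* KO against the added changes of both single-loss groups, passed the threshold in edgeR's test for 4 desmosome genes. It was 1.77 for *DSC2* (adjusted p = 0.00307), 2.12 for *DSP* (adjusted p = 0.00140), 2.10 for *JUP* (adjusted p = 0.0114) and 1.71 for *PKP3* (adjusted p = 0.0103), all on the log2 scale. In each of these genes the libraries labelled *ERF* KD were the lowest, and no test between the other 3 groups called a difference.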

How the results depend on the processing

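The 10 members were refitted under 16 alternatives (15 for the interaction). The calls of *DSG3*, *DSC2*, *DSP*, *JUP* and *PKP3* in the libraries labelled *ERF* KD against WT, and those of *DSC2*, *DSP*, *JUP* and *PKP3* in *ERF* KD + *CIC* KO against those libraries and in the interaction, held under all of them. Against WT, *ERF* KD + *CIC* KO had 2 members called with DESeq2, with no filter and with the replicate block, 0 with length-scaled counts and with limma on either TPM scale, and 0 to 1 with a library left out. *DSG3* there had log2 fold changes of -4.18 with length-scaled counts (adjusted p = 0.0512), -1.66 in limma on the log2(TPM + 1) scale (adjusted p = 0.0502) and -3.54 on log2(TPM + 0.1) (adjusted p = 0.0945), and -4.93 to -3.65 with a library left out. Its call was lost without either WT library, either library labelled *CIC* KO or either library of its own group (adjusted p from 0.0609 to 0.271). Against the libraries labelled *CIC* KO, 2 members were called with DESeq2, 3 with no filter and 1 with the replicate block. The paired fit changed no call of a member other than those given above. The cause of these differences was not tested.

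Values that changed sign were uncalled in the fit given above. With limma on log2(TPM + 1) they were -0.01 for *DSC2* and 0.10 for *DSC3* in the libraries labelled *CIC* KO against WT, and 0.30 for *DSG3* and -0.18 for *DSC3* in the interaction. On log2(TPM + 0.1) these 4 values were -0.01, 0.12, 0.13 and -0.34, and with length-scaled counts *DSC3* was at 0.18 and -0.27. With 1 library left out, log2 values ran from -0.80 to 0.20 for *PKP1* and -1.97 to 0.22 for *PPL* in the libraries labelled *ERF* KD against WT. In those labelled *CIC* KO against WT they ran from -0.23 to 0.09 for *DSG2*, -0.05 to 0.15 for *DSC2*, -0.23 to 0.11 for *JUP*, -0.11 to 0.76 for *PKP1*, -0.17 to 0.30 for *PKP3* and -0.33 to 0.19 for *PPL*. In *ERF* KD + *CIC* KO against WT they ran from -0.11 to 0.05 for *DSC2*, -0.30 to 0.01 for *DSP* and -0.20 to 0.16 for *JUP*. Against the libraries labelled *ERF* KD they ran from -0.63 to 0.38 for *DSC3* and -0.65 to 0.36 for *PKP1*, and against those labelled *CIC* KO from -0.18 to 0.02 for *DSC2*, -0.13 to 0.21 for *JUP*, -0.22 to 0.07 for *PKP2* and -0.03 to 0.45 for *PKP3*. Between the single-loss groups they ran from -1.92 to 0.26 for *PPL*, and in the interaction from -0.88 to 0.42 for *DSG3* and -0.49 to 0.52 for *DSC3*. Where a group is left with 1 library, that library is assumed to vary like the other groups. *DSG3* and *DSC3* have the fewest counts of the members, which limits the precision of both.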
